A study of Mus musculus with 9 samples.

Results

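The genes described here were 8 that mark non-classical monocytes: Itgal, Spn, Pou2f2, Ace, Treml4, Adgre4, Eno3 and Fabp4. They were taken as a named list and matched to the 53801 Ensembl genes of the count tables by symbol, and all 8 had counts in all 9 libraries. RNA was sequenced from cells sorted as CD11c- Ly6G- CD11b+ CD45high, a gate for monocytes and macrophages, in 3 groups of 3 libraries. The groups were the blood of sham-operated mice (sham blood), the blood of mice 5 days after ischemic stroke (stroke blood) and the brain of mice 5 days after stroke (stroke brain). All mice were male C57BL/6J, 9 weeks old by the labels, and stroke was made by closing the left common carotid artery and, farther along, the distal middle cerebral artery of the same side for good (dMCAO). A blood library came from 1 mouse and a brain library from the pooled cells of 5 mice. The time after surgery of the sham blood was not given in the sources used here. Brain cells were freed with a tissue dissociation kit and a Percoll gradient and blood cells with a Ficoll gradient, so that tissue and preparation cannot be told apart.

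Blood monocytes of the mouse are usually divided by Ly6C. Classical Ly6C-high cells enter inflamed tissue, and non-classical Ly6C-low cells patrol the inner wall of blood vessels, held there by the integrin LFA-1. Ly6C-low monocytes arise largely from Ly6C-high ones, and their formation and survival depend on the nuclear receptor Nr4a1 and on C/EBPβ, encoded by Cebpb. The sort used neither Ly6C nor CD43, so it did not separate these kinds of monocyte, and the share of each in a library is not known. As the authors state, the brain cells of this gate could be macrophages derived from monocytes or activated microglia. The gate left out CD11c+ cells, and Ly6C-low monocytes are known to carry some CD11c. In such bulk RNA, fewer cells of a type and less RNA per cell cannot be told apart.

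Total counts were between 18475118 and 22623578 per library, and levels are given as normalized CPM, the counts divided by the library's total, in units of 1000000 counts, after TMM scaling over the 9 libraries. On this scale, 3 counts corresponded to between 0.125 and 0.18 normalized CPM. Of the genes of the gate, Ptprc (CD45) was between 937 and 1733 normalized CPM and Itgam (CD11b) between 136 and 239, while Ly6g was at most 0.839. Csf1r, the receptor that defines monocytes and macrophages, was between 2210 and 3710. Markers of other cells were present too: the 9 T and NK cell markers summed to between 265 and 1337 normalized CPM, and the 7 microglia markers to between 916 and 2591 in the brain and between 149 and 208 in blood. The 7 neutrophil markers summed to between 485 and 1013 normalized CPM in the brain and between 9.79 and 324 in stroke blood. In sham blood they summed to between 178.5 and 539. Of the 5 neutrophil markers tested, 3 were called higher in the brain than in stroke blood. The part of neutrophil RNA in the levels of the 8 genes was not tested. Sham blood replicate 1 stood apart by its erythroid and platelet markers (erythroid sum 1249 normalized CPM against 31080 and 33830 in the other sham libraries), and brain replicate 1 stood apart from the other brain libraries in many genes, as given below. The values of the 8 genes without these libraries are given with each comparison. A sample number in the deposited names occurs in both a sham blood and a brain library, so the 9 libraries were not all numbered in 1 series. No run or batch is given in the sources used here, and its part in the results was not tested.

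The 8 genes lie at the following places in GRCm38. Itgal (chr7:127296260-127335138, + strand) and Spn (chr7:127132232-127137823, - strand) are neighbours on chromosome 7, 158436 bases apart with 8 protein-coding genes between them. Pou2f2 is on the same chromosome (chr7:25087344-25179726, - strand). Ace (chr11:105967945-105989964, + strand) and Eno3 (chr11:70657202-70662513, + strand) are on chromosome 11, Treml4 (chr17:48264295-48275360, + strand) and Adgre4 (chr17:55749984-55853662, + strand) on chromosome 17, and Fabp4 (chr3:10204088-10208576, - strand) on chromosome 3. Exons of Ace share 295 bases with the antisense gene Gm11651, which had at most 2 counts in any library, and exons of Pou2f2 share 35 bases with Mir6537, which had none. The strand setting of the counting is not given in the sources used here.

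Promoter windows of RefSeq (GRCm38.p6) were at hand for 6 of the 8 genes, Ace with a second, internal start. The 250 bases before the start are shown for the gene called against sham blood (Eno3), for the gene whose brain libraries differed most among themselves (Ace) and for the 2 receptor genes (Treml4 and Adgre4), with the matches to the motifs searched in capitals.
Ace, chr11:105967698-105967947, + strand: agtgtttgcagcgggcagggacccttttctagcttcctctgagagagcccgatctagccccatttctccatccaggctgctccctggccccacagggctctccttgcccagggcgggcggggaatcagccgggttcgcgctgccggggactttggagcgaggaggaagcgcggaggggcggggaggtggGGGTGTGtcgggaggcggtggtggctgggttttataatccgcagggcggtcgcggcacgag
Eno3, chr11:70656926-70657175, + strand: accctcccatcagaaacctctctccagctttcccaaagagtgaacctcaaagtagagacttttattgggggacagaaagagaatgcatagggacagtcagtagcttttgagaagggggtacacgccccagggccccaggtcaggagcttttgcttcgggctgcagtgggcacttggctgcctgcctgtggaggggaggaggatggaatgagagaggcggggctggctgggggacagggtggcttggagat
Treml4, chr17:48264045-48264294, + strand: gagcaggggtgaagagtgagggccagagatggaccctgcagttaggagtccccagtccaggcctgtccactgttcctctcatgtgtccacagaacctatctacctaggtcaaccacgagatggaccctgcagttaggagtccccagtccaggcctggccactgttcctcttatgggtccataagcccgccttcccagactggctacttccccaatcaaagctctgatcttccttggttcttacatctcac
Adgre4, chr17:55749734-55749983, + strand: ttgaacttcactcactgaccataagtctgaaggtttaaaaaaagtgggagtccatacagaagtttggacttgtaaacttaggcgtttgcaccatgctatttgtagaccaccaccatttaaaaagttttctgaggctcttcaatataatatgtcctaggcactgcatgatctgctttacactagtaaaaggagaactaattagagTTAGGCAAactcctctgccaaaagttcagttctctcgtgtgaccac
The motifs were searched on both strands of the 300-base windows (250 bases before the start and 50 after it). They were the octamer ATGCAAAT that POU2F2 binds, the NR4A1 element AAAGGTCA, the C/EBP core TTGCNNAA, the PU.1 core GAGGAAGT and the KLF element CACACCC. The KLF element was found in the window of Ace (GGGTGTG on the - strand, 61 bases before the start). It was found in 7.95% of the 32851 windows of the table. The C/EBP core was found in the window of Adgre4 (TTAGGCAA, 46 bases before the start), against 10.8% of all windows. The PU.1 core was found in the same window (ACTTCCTC, 41 bases after the start and so not in the stretch shown), against 3.2% of all windows. No octamer (1.74% of all windows) and no NR4A1 element (1.51%) was found in the 7 windows of these genes. The window of Ace was 69.7% G or C with 29 CG dinucleotides, and the median window had 52.7% and 7. In the windows of Adgre4, Treml4, Eno3 and Spn there were 2 or 3. These matches are letters in a window and not measured binding.

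**Figure D1:**
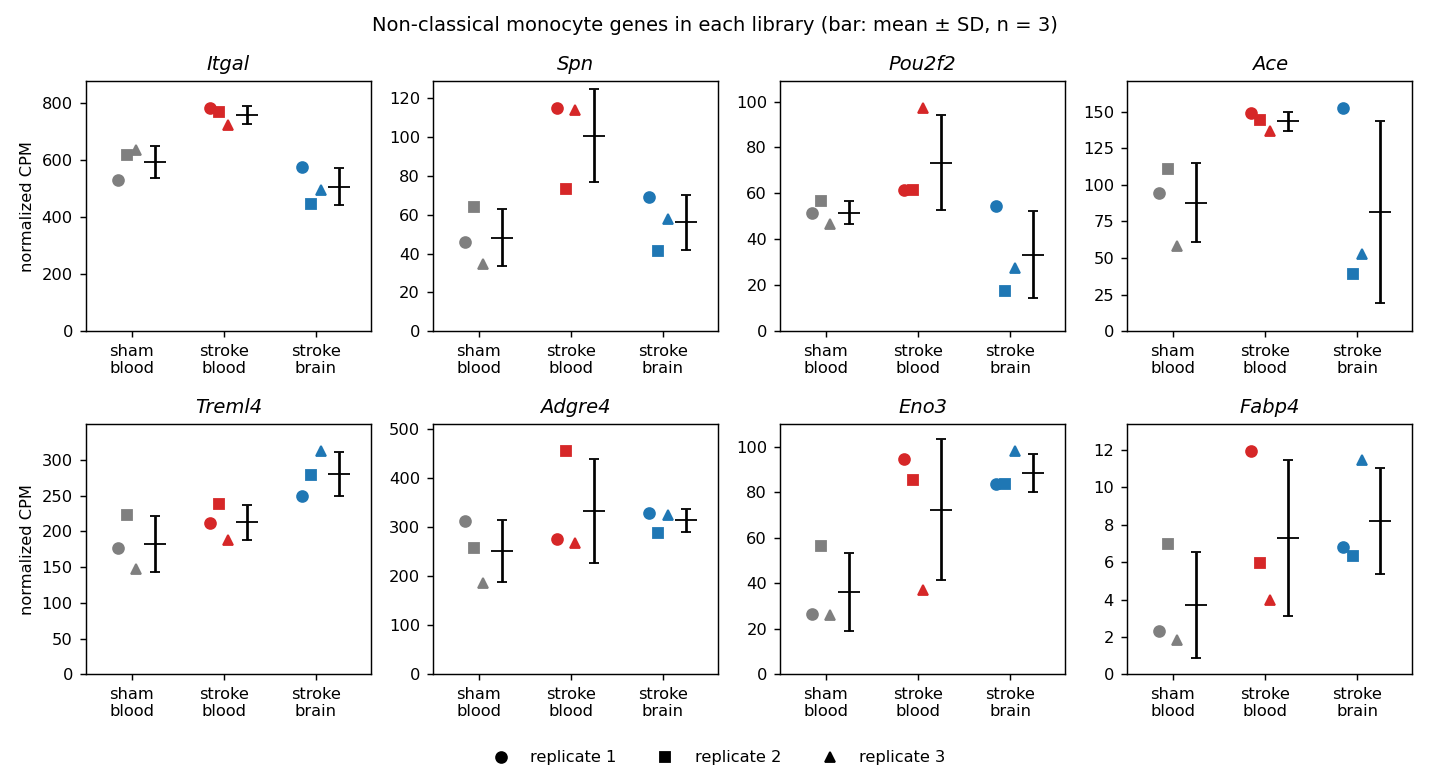
Normalized CPM (y axis, from 0) of each gene in each of the 9 libraries, by group, with the mean and SD of the 3 libraries beside them. Stroke blood lay above stroke brain in all libraries for Itgal, Spn and Pou2f2, and stroke brain lay above stroke blood in all libraries for Treml4; in Ace the brain libraries ran from 39.1 to 152.7.

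Per kilobase of the principal transcript, the order of the mean levels was nearly the same in the 3 groups. Itgal, Treml4 and Adgre4 were the highest in each, at 114.5, 104.5 and 72.0 normalized CPM per kb in sham blood, followed by Eno3, Ace and Spn. Fabp4 and Pou2f2 were the lowest, with 4.13 ± 3.14 (SD, n = 3) for Fabp4 and 7.28 ± 0.73 for Pou2f2 in sham blood. Neighbours in this order mostly overlapped: in sham blood a gap without overlap lay only below Adgre4 and below Spn. In stroke blood Itgal was highest, at 146 ± 6.20 per kb, and its libraries lay above those of Treml4 (122 ± 14.1). In stroke brain the order of these was turned, with Treml4 at 160.7 ± 17.9 per kb and Itgal at 97.6 ± 12.6, without overlap.

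Stroke brain was compared with stroke blood to ask how the genes differ between cells in the injured brain and cells circulating in the same condition. No gene of the 8 was called at a log2 fold change beyond 1 in either direction and an adjusted p below 0.05. Of the 13189 genes tested 21% were, 13.1% higher and 7.86% lower. Itgal, Spn and Pou2f2 were lower in all brain libraries than in all stroke blood libraries, and Treml4 was higher in all of them. Groups without overlap were thus found in 4 of the 8 genes, and in 48% of all genes tested (22.2% lower and 25.8% higher), so that this count is near the background. At an unadjusted p below 0.05 there were 4 genes, and 2 had an adjusted p below 0.05 with edgeR's quasi-likelihood test. Over all genes tested these shares were 42.2% and 30.6%, so that these counts too are near the background. DESeq2 called 1, Pou2f2.

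Itgal encodes CD11a, the α chain of LFA-1, with which leukocytes bind ICAMs on endothelium. Its level was 784, 769.5 and 723 normalized CPM in stroke blood, against 576, 447 and 497.5 in the brain. In sham blood it was 531, 618 and 635. The brain libraries were all below the stroke blood libraries and overlapped those of sham blood. The log2 fold change in the brain was -0.55 ± 0.15 (SE) against stroke blood, a level 1.46-fold lower, with an adjusted p of 0.0242 (edgeR), and so below the fold threshold. It was -0.65 without brain replicate 1, with an adjusted p of 0.0127.

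Spn encodes CD43 (leukosialin), the heavily glycosylated surface protein by which Ly6C-low monocytes are often gated. Its level was 115, 73.1 and 114 normalized CPM in stroke blood and 69.1, 41.1 and 57.9 in the brain. All brain libraries were below all stroke blood libraries, by a margin set by stroke blood replicate 2. This was a log2 fold change of -0.81 ± 0.24 (SE) with an adjusted p of 0.0308 (edgeR). Without stroke blood replicate 2 it was -1.03 with an adjusted p of 0.0176, which passed the fold threshold, and without brain replicate 1 it was -0.99 with an adjusted p of 0.0167. T and NK cells also express Itgal and Spn, and all 9 of their markers had more than 3 counts in all libraries. The T and NK marker sum was 938, 366 and 328 normalized CPM in stroke blood and 678, 1247 and 1337 in the brain, and 4 of the 9 markers were called higher in the brain (Cd3d, Cd3g, Cd2 and Lck), or 5 without brain replicate 1. Their part in the levels of Itgal and Spn was not tested.

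Pou2f2 encodes OCT2, an octamer-binding transcription factor best known from B cells. Its level was 61.4, 61.7 and 97.3 normalized CPM in stroke blood and 54.3, 17.7 and 27.7 in the brain. The highest brain library, replicate 1, lay close under the lowest stroke blood library, and the other brain libraries far below. The log2 fold change was -1.10 ± 0.38 (SE), past the fold threshold, with an adjusted p of 0.0514 (edgeR) that missed the threshold for a call. DESeq2 gave -1.11 with an adjusted p of 0.00925, and without brain replicate 1 edgeR gave -1.66 with an adjusted p of 0.00306. The B cell marker sum was between 66.8 and 115 normalized CPM in stroke blood and between 44.6 and 86.6 in the brain, with none of the 5 markers tested called between them by edgeR or DESeq2 and 1 at an unadjusted p below 0.05. Their part in the level of Pou2f2 was not tested.

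Ace encodes the angiotensin-converting enzyme, a peptidase of the cell surface. Its level was 149, 144 and 137 normalized CPM in stroke blood, with an SD of 4.39% of the mean, and 152.7, 39.1 and 52.8 in the brain, with an SD of 76%. The median SD over genes with a mean of at least 1 CPM was 19.5% in stroke blood and 18.6% in the brain. Brain replicate 1 was above all blood libraries and the other brain libraries were below all of stroke blood. The log2 fold change was -0.78 ± 0.43 (SE) with an adjusted p of 0.198 (edgeR), and without brain replicate 1 it was -1.61 with an adjusted p of 0.00054, so that this library decided the call.

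The same brain library was highest in some other measures and lowest in others. The 5 choroid plexus markers, an epithelium known to express Ace, summed to 233 normalized CPM in brain replicate 1 and to 30.1 and 102 in replicates 2 and 3, and 4 of the 5 had more than 3 counts in all brain libraries. In blood they summed to at most 0.0498, with Ttr, Kl, Folr1 and Enpp2 at 0. The 7 endothelial markers summed to 57.64 normalized CPM in brain replicate 1, the highest brain library, and to 44.75 in the lowest, replicate 2. They summed to between 68.13 and 83.61 in stroke blood and between 45.53 and 78.18 in sham blood. Of the 4 tested, Pecam1 was called higher and Vwf lower in the brain than in stroke blood (edgeR). Cldn5 and Tek were at 0 counts in all 9 libraries. The part of choroid plexus or endothelial RNA in the level of Ace was not tested. Klf2 was at 146.5, 46.5 and 66.8 normalized CPM in brain replicates 1, 2 and 3, and Nr4a1 at 3113, 690.5 and 865, and these also were highest in replicate 1. The marker sums of microglia (916 normalized CPM), T and NK cells (678) and neutrophils (485) in replicate 1 were the lowest of the brain libraries.

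The receptor genes were Treml4, higher in all brain libraries than in stroke blood, and Adgre4, whose groups overlapped. Treml4 is a receptor of the TREM family that signals through DAP12 and marks Ly6C-low monocytes and some dendritic cells. Its level was 212, 237.5 and 188 normalized CPM in stroke blood and 249.8, 278.5 and 312 in the brain, and the lowest brain library was above the highest stroke blood library. It had a log2 fold change of 0.43 ± 0.16 (SE) with an adjusted p of 0.0723 (edgeR), and of 0.50 with an adjusted p of 0.0533 without brain replicate 1. Of the 7 dendritic cell markers, 6 were called higher in the brain (5 without brain replicate 1), and their sum was between 710 and 866 normalized CPM there and between 98.7 and 224 in stroke blood. Siglech, called higher, is also counted among the 7 microglia markers. It was at 0 in stroke blood and between 61.0 and 157.7 normalized CPM in the brain. The part of dendritic cells in the level of Treml4 was not tested. Adgre4 is an adhesion G protein-coupled receptor of the F4/80 family. Its level was 276, 455 and 268 normalized CPM in stroke blood and 329, 287 and 325 in the brain. The groups overlapped, with a log2 fold change of -0.06 (95% interval from -0.56 to 0.44) whose sign turned with library size as the only scaling (0.09). It was also -0.09 without brain replicate 1.

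Eno3, the muscle form of the glycolytic enzyme enolase, and Fabp4, a carrier of fatty acids in adipocytes and macrophages, varied most in blood. Eno3 was at 94.7, 85.4 and 36.9 normalized CPM in stroke blood and at 83.7, 83.8 and 98.2 in the brain. The brain libraries lay within a narrow range, which also held stroke blood replicates 1 and 2, while stroke blood replicate 3 was far below it. Fabp4 was at 11.9, 5.98 and 3.95 normalized CPM in stroke blood (234, 126 and 66 counts) and at 6.79, 6.32 and 11.4 in the brain (139, 152 and 262 counts). Fabp4 was the lowest of the 8 genes in counts, and its groups overlapped. The log2 fold changes were 0.32 (95% interval from -0.38 to 1.01) for Eno3 and 0.19 (from -0.79 to 1.17) for Fabp4. They were 0.36 and 0.31 without brain replicate 1.

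**Figure D2:**
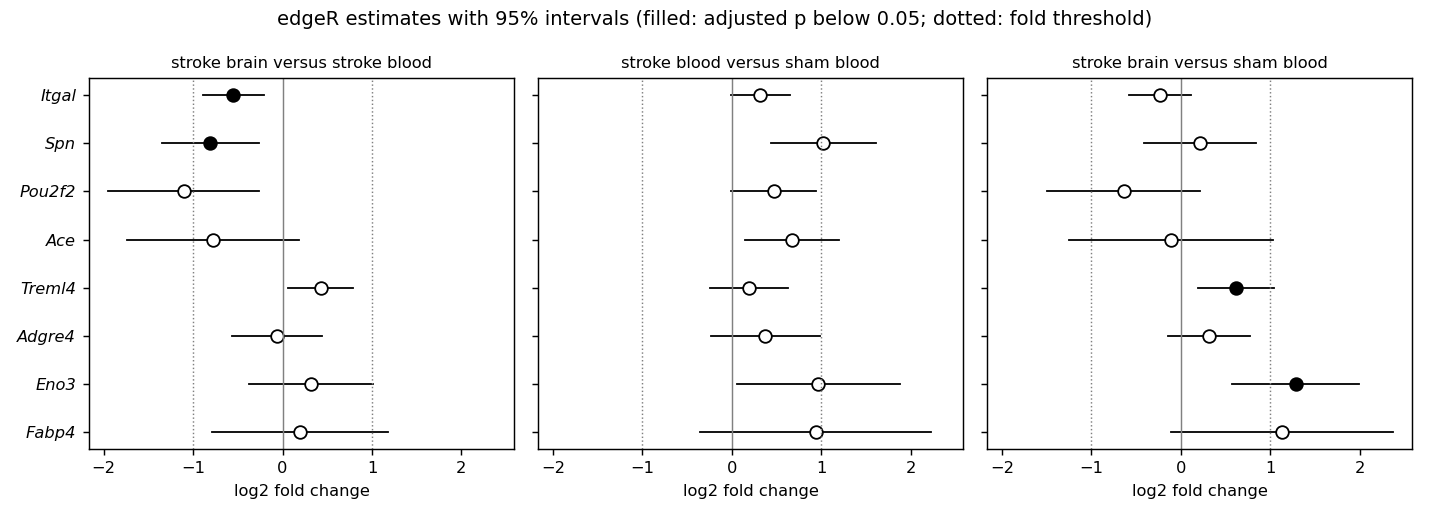
Log2 fold change (x axis) of each gene in the 3 comparisons, with edgeR's 95% interval; filled points have an adjusted p below 0.05 and dotted lines mark the fold threshold. Only Eno3 in stroke brain versus sham blood is both filled and past the dotted line.

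Stroke blood was compared with sham blood to ask whether the circulating cells changed after stroke. No gene of the 8 was called with edgeR's quasi-likelihood test, and over all genes 1 of 12664 was (0.0079%, Serpinb10, named after its value was seen). All 8 estimates were above 0, with a median log2 fold change of 0.57 against -0.03 for all genes tested, but none had an adjusted p below 0.05. At an unadjusted p below 0.05 there were 3 (Spn, Ace and Eno3), against 12.5% of the genes tested, and DESeq2 called 1, Spn. Without sham blood replicate 1 edgeR again called none of the 8, with estimates between 0.17 (Treml4) and 0.99 (Spn), and 16 genes in all. Itgal, Spn, Pou2f2 and Ace were higher in all stroke blood libraries than in all sham blood libraries, 4 of 8, while 18.4% of the genes tested did not overlap, 9.2% in this direction.

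Spn was at 46.1, 63.9 and 34.7 normalized CPM in sham blood, and the lowest stroke blood library (73.1) was above the highest of these. The log2 fold change was 1.02 ± 0.26 (SE), a level 2.03-fold higher, with an adjusted p of 0.285 by edgeR and of 0.017 by DESeq2. Ace was at 94.5, 111 and 58.1 normalized CPM in sham blood, below all libraries of stroke blood, with a log2 fold change of 0.67 ± 0.23 (SE) and an adjusted p of 0.328 (edgeR). Pou2f2 was at 51.5, 56.9 and 46.6 in sham blood, with a log2 fold change of 0.47 ± 0.21 and an adjusted p of 0.402. For Itgal the log2 fold change was 0.32 ± 0.15 with an adjusted p of 0.409. The intervals of Pou2f2 and Itgal reached just below 0.

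In the other members the groups overlapped. Eno3 was at 26.5, 56.2 and 26.1 normalized CPM in sham blood, and Fabp4 at 2.34, 6.94 and 1.83 (47, 149 and 33 counts). In both genes sham blood replicate 2 was above stroke blood replicate 3. The log2 fold changes were 0.97 ± 0.40 (SE, adjusted p 0.386) for Eno3 and 0.94 ± 0.57 (adjusted p 0.516) for Fabp4. Treml4 was at 177, 223 and 147 in sham blood and Adgre4 at 312, 257 and 185, with log2 fold changes of 0.19 (95% interval from -0.24 to 0.63) and 0.38 (from -0.23 to 0.98). The T and NK marker sum in sham blood was 265, 688 and 392 normalized CPM, so that sham blood replicate 2 and stroke blood replicate 1, the libraries with the most Eno3 and Fabp4 in their groups, were also those with the highest T and NK sums. Its part in these levels was not tested. Skeletal muscle markers, which bear on Eno3, summed to at most 3.57 normalized CPM in any library with Myh4 at 0, and adipocyte markers, which bear on Fabp4, to at most 1.14 with Lep and Cidec at 0.

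Stroke brain was also compared with sham blood, the cells of mice without stroke. Of the 8 genes, 1 was called higher and none lower, against 9.75% and 3.67% of the 13020 genes tested (13.4% in all). The gene was Eno3, with a log2 fold change of 1.28 ± 0.31 (SE), a level 2.43-fold higher, and an adjusted p of 0.0239 (edgeR). The lowest brain library (83.7 normalized CPM) was above the highest sham blood library (56.2). The fold stayed between 1.09 and 1.74 on the log2 scale when a library was left out, but the call was lost without sham blood replicate 1 or 3 or brain replicate 2 or 3, with adjusted p up to 0.0774. It held without brain replicate 1 (1.32, adjusted p 0.0435).

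Treml4 was higher in all brain libraries than in all sham blood libraries, at a log2 fold change of 0.62 ± 0.18 (SE) and an adjusted p of 0.0499 (edgeR), under the fold threshold. The adjusted p was 0.104 without sham blood replicate 1 and 0.0536 without brain replicate 1. These were 2 genes of 8 without overlap in the higher direction, and 22.1% of the genes tested were so. Fabp4 had a log2 fold change of 1.13 ± 0.54 with an adjusted p of 0.178, since sham blood replicate 2 lay among the brain libraries. Without that library the estimate was 1.95 with an adjusted p of 0.0363, and it was 0.89 without sham blood replicate 1 and 1.25 without brain replicate 1. Pou2f2 was at -0.64 ± 0.37 with an adjusted p of 0.262, and without brain replicate 1 at -1.20 with an adjusted p of 0.0183, and at -0.64 without sham blood replicate 1. The B cell marker sum was 128, 243 and 234 normalized CPM in sham blood, and 4 of the 6 markers were called lower in the brain than there (median log2 fold change -2.07). Their part in the level of Pou2f2 was not tested here either. The estimates of Itgal (-0.23), Spn (0.21) and Adgre4 (0.32) had intervals on both sides of 0. They were -0.34, 0.03 and 0.28 without brain replicate 1 and -0.31, 0.18 and 0.50 without sham blood replicate 1, and none of these passed the test. Ace stood at -0.11 with an interval from -1.26 to 1.04, and its sign turned with library size as the only scaling (0.02). It was -0.94 without brain replicate 1 (adjusted p 0.0718) and -0.05 without sham blood replicate 1. This comparison shares its brain and sham libraries with the others, so its values are not separate evidence. The other comparisons share the stroke blood libraries. For Itgal, Spn and Pou2f2, the lower level in the brain and the higher level than in sham blood are both measured from these same stroke blood libraries. They are not separate evidence either.

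**Figure D3:**
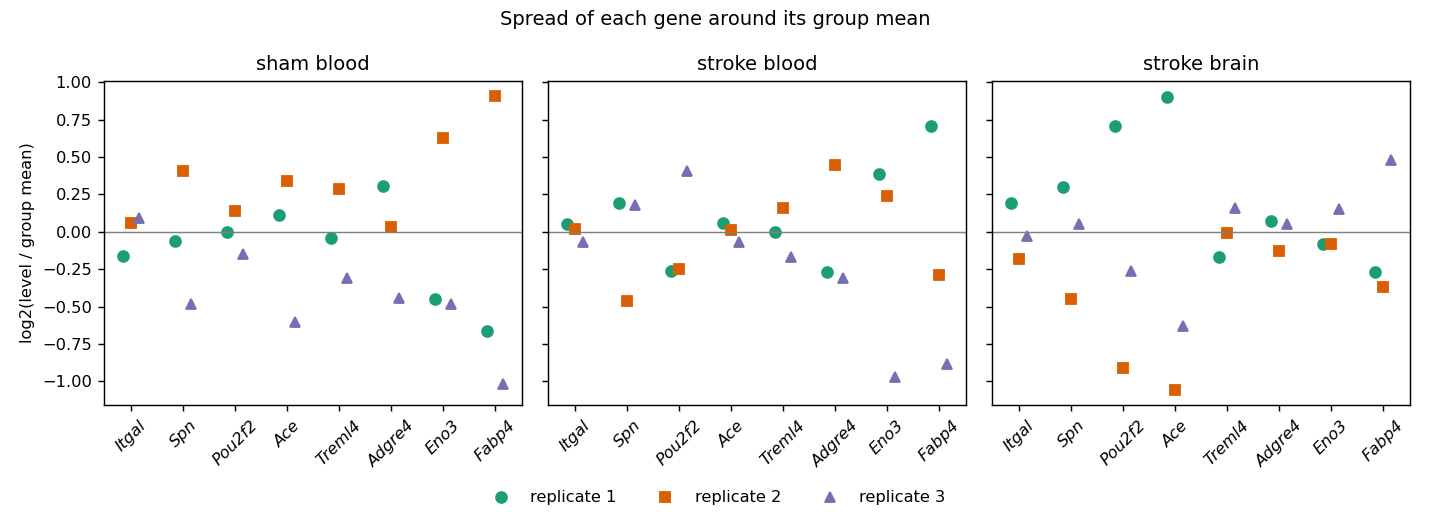
Log2 of each library's normalized CPM over the mean of its group (y axis) for the 8 genes, by group, with a symbol for each replicate. Replicate 3 of sham blood is lowest in 7 of 8 genes, and in the brain replicate 1 is highest for Itgal, Spn, Pou2f2 and Ace.

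Within a group, the same libraries tended to hold the high or the low values of the 8 genes. In sham blood, replicate 2 was the highest for 6 of the 8 and replicate 3 the lowest for 7. Over all genes tested, replicate 2 was the highest in 28.9% and replicate 3 the lowest in 32.5%. Sham blood replicate 3 was the highest for 7 of 11 classical Ly6C-high genes and for 33.8% of all genes tested. In stroke blood, replicate 1 was the highest for 5 and replicate 3 the lowest for 6 of the 8, against 28.6% and 32.2% of all genes tested. In the brain, replicate 1 was the highest for 5 and replicate 2 the lowest for 6. Over all genes tested, brain replicate 1 was highest in 37.5% and brain replicate 2 lowest in 30.7%. Brain replicate 1 was also the lowest in 42.1% of all genes tested. The spread differed between genes as well. The SD of Itgal was between 4.25% and 12.9% of its mean in the 3 groups, and that of Fabp4 between 34.6% and 76.1%.

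The 8 genes were set beside other genes of the 2 monocyte types. The 11 classical Ly6C-high genes stood lower in the brain: 10 were called lower than in stroke blood and none higher, with a median log2 fold change of -1.59, against -0.30 for the 8 genes and 0.06 for all genes tested. Ly6c2 itself was at 3032, 2019 and 2944 normalized CPM in stroke blood and 901, 869 and 728 in the brain (log2 fold change -1.64, adjusted p 0.000342, edgeR). Against sham blood 9 were called lower, with a median of -1.76, and in stroke versus sham blood none was called, with a median of -0.27, 7 of the 11 at an unadjusted p below 0.05 and 1 called lower by DESeq2. Without brain replicate 1 the count against stroke blood was again 10. With library size as the only scaling, the median of all genes in stroke brain versus stroke blood moved to 0.22 and that of the 8 genes to -0.15. As a description of each library, the summed level of the 8 genes was 5.61%, 5.65% and 2.63% of the summed level of the 11 classical genes in sham blood. It was 7.33%, 8.41% and 7.0% in stroke blood and 20%, 14.5% and 16.7% in the brain. The sum of the 8 genes alone was between 1134 and 1394 normalized CPM in sham blood, between 1568 and 1832 in stroke blood and between 1200 and 1522 in the brain, so that the higher share in the brain went with the lower sum of the classical genes.

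Of 11 other genes of Ly6C-low monocytes, 3 were called higher and 1 lower in the brain than in stroke blood, with a median log2 fold change of 0.59. Those called higher were Itgax, which encodes CD11c (2.71), the checkpoint ligand Cd274 (2.28) and the scavenger receptor Cd36 (1.83), and the gene called lower was the eosinophil-associated ribonuclease Ear2 (-1.12). Itgax was at 20.6, 11.8 and 12.2 normalized CPM in stroke blood and 129, 74.2 and 80.8 in the brain, although the gate left out CD11c+ cells. The Fc receptor Fcgr4 (0.95, adjusted p 0.0273, edgeR) stayed below the fold threshold. The fractalkine receptor Cx3cr1 was at 396, 546 and 590 in stroke blood and 373, 850 and 1042 in the brain, with an adjusted p of 0.196. Itgax, Cd36 and Cd274 are also expressed by dendritic cells or macrophages, and Cx3cr1 by microglia, whose 7 markers were all called higher in the brain, also without brain replicate 1. Their part in these levels was not tested. Against sham blood 3 were called higher (Itgax, Cd274 and Cd36) and none lower, and in stroke versus sham blood none was called by edgeR or DESeq2, with a median of 0.47 and 4 at an unadjusted p below 0.05. Without brain replicate 1 there were 4 called higher and 1 lower than in stroke blood.

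**Figure D4:**
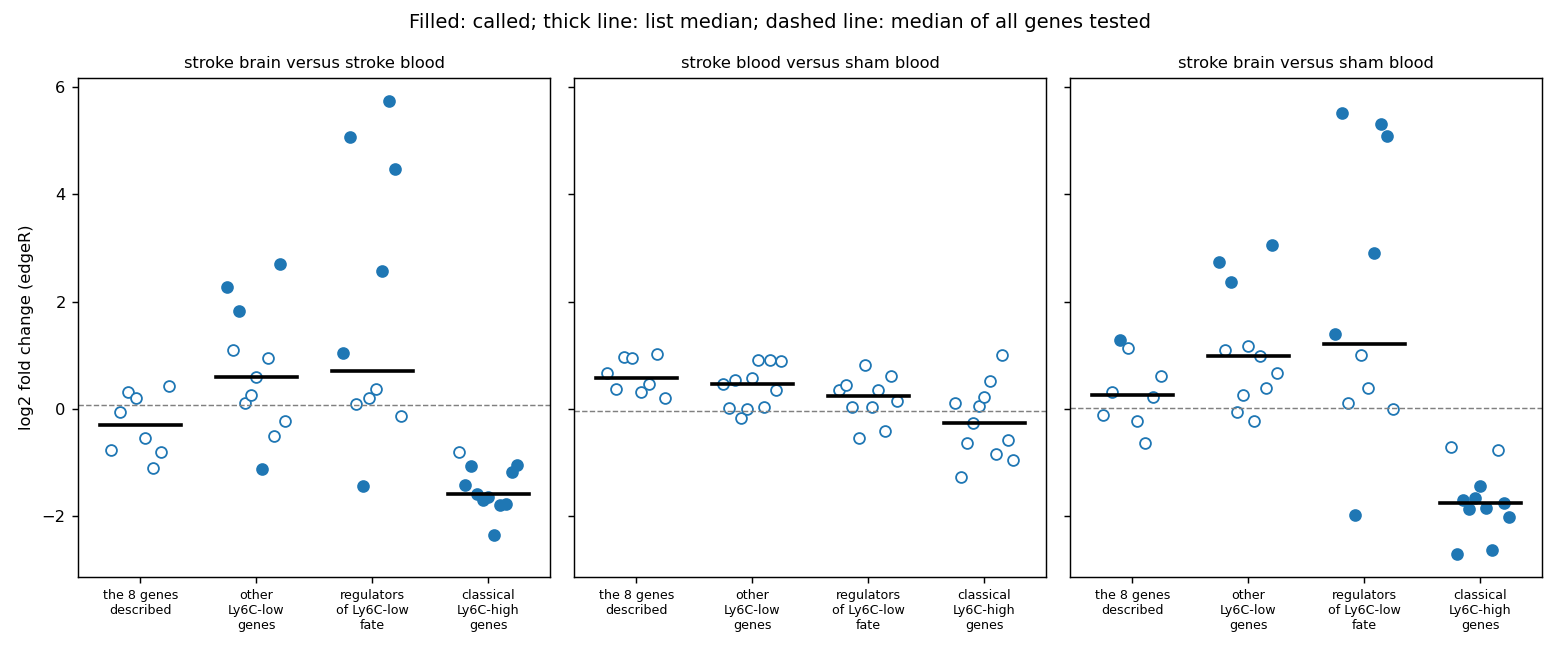
Log2 fold change (y axis) of each gene of 4 lists in the 3 comparisons; filled points were called, thick lines are list medians and the dashed line is the median of all genes tested. In the brain 10 of 11 classical genes are called lower than in stroke blood and none of the 8 described genes is called.

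Among 10 regulators of the Ly6C-low fate, 5 were called higher and 1 lower in the brain than in stroke blood, with a median log2 fold change of 0.71. Nr4a1 was at 319.5, 273 and 212 normalized CPM in stroke blood and 3113, 690.5 and 865 in the brain, without overlap (log2 fold change 2.58 ± 0.52 SE, adjusted p 0.00573, edgeR). Cebpb was at 38.1, 20.4 and 54.5 in stroke blood and 876.5, 1463 and 1372 in the brain (5.08 ± 0.37, adjusted p 3.2e-05). The Nr4a1 relatives Nr4a2 and Nr4a3 and the survival gene Bcl2 were the others called higher. Klf2, a zinc finger factor of resting leukocytes and endothelium, was called lower (-1.44, adjusted p 0.025). The lineage factors Irf8 and Spi1 were at 0.08 and -0.14 and were not called. Without brain replicate 1 there were 4 called higher and 1 lower. In stroke versus sham blood none of the 10 was called by edgeR or DESeq2, with 1 at an unadjusted p below 0.05. As background, the Nr4a genes are also early response genes, induced by many stimuli including tissue dissociation, and brain and blood cells were prepared differently. The part of preparation in these levels cannot be told apart from that of tissue.

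The partners of LFA-1 and CD43 were fixed as a list of 14 genes. Of these, 1 was called higher in the brain than in stroke blood (Gcnt1, a glycosyltransferase that acts on CD43, 1.01) and 3 lower, with a median log2 fold change of 0.09. The lower genes were Apbb1ip (-1.78) and Rasgrp2 (-1.34), which act in the Rap1 pathway that switches integrins on, and the ligand Icam2 (-1.01). Itgb2, the β chain shared by LFA-1 and Mac-1, was at 1269, 1581 and 1151 normalized CPM in stroke blood and 1199, 1466 and 1427 in the brain. Its groups overlapped, while those of its partner Itgal did not. None of the 14 was called in stroke blood or in the brain against sham blood by edgeR or DESeq2, with 1 and 7 at an unadjusted p below 0.05. Over all genes tested, 12.5% and 34.3% had such a p in these comparisons. Without brain replicate 1 there was 1 called higher and 1 lower in the brain than in sham blood.

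For Ace, 10 genes of the angiotensin peptide system were looked up. Those of angiotensinogen (Agt), renin (Ren1), Mme, Agtr1b, Agtr2 and Mas1 had 0 counts in all 9 libraries, and 3 counts corresponded to at most 0.18 normalized CPM. The aminopeptidase gene Anpep was the only gene of the list with enough counts to be tested, at 7.18, 1.16 and 2.05 normalized CPM in the brain and between 0.142 and 0.419 in stroke blood, and was called higher (log2 fold change 3.90, adjusted p 0.0082, edgeR). It too was highest in brain replicate 1, without which its log2 fold change was 2.79 and again called. For Fabp4, 4 of 8 genes of fatty acid handling were called higher in the brain than in stroke blood and none lower (1 lower without brain replicate 1): Plin2 (2.11), Cd36 (1.83), Fabp5 (1.62) and Pparg (1.36), with a list median of 0.55. Fabp5, the epidermal paralog of Fabp4, was at 112, 111 and 143.5 normalized CPM in the brain and between 39.6 and 41.2 in stroke blood, while the groups of Fabp4 overlapped.

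Paralogs of the 8 genes were looked up to see how the families compare. Of 19 paralogs 16 were tested, and 6 were called higher and 1 lower in the brain than in stroke blood, also without brain replicate 1, with a median log2 fold change of -0.18. In the TREM family Trem1 was at 17.3, 10.5 and 9.88 normalized CPM in stroke blood and 325, 174 and 106.5 in the brain (4.04, adjusted p 0.000226, edgeR), Trem2 was called higher (1.08), and the platelet receptor Treml1 was called lower (-6.82), as were 5 of the 6 platelet markers. Among the α chains that pair with Itgb2, Itgax was called higher, while Itgam (-0.59, adjusted p 0.0119) and Itgal (-0.55) stayed below the fold threshold. Among the enolases, Eno1 was the main form at between 1668 and 2242 normalized CPM in all libraries and was not called in any comparison, and Eno2 was at 0 in blood and between 0.732 and 1.58 in the brain. Eno1 and Eno1b share nearly all of their sequence, so how their reads were divided is uncertain. Pou2f1, the broadly expressed relative of Pou2f2, had a log2 fold change of 0.37 and was not called.

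The genes most like each of the 8 were found by the root mean square difference of log2(normalized CPM + 1), centred on each gene's mean, over the 9 libraries and 11688 genes with a mean of at least 1 CPM. Eno3 and Fabp4 were each other's nearest gene (0.281), and S1pr5, a receptor of Ly6C-low monocytes and NK cells, was the next for Fabp4 (0.335). Treml4 was nearest to Fcgrt (0.11), Adgre4 to Sema4d (0.157) and Spn to Ranbp9 (0.194). Itgal was nearest to Acrbp (0.093) and Tkt (0.105). Acrbp had means of only 0.949, 1.55 and 0.718 normalized CPM in sham blood, stroke blood and brain. At such levels the added 1 narrows the differences, so its closeness to Itgal is uncertain. Pou2f2 was nearest to Nufip2 (0.126), Rps6ka3 (0.152) and Bcl6 (0.168). Bcl6, a transcriptional repressor, had means of 51.2, 75.3 and 33.2 normalized CPM in sham blood, stroke blood and brain, and Pou2f2 had 51.7, 73.4 and 33.2. Ace was nearest to Ring1 (0.289), Prkab2 (0.323) and Cytip (0.325), distances in the range of those of Eno3 and Fabp4. Ace, Eno3 and Fabp4 also had the largest spread around their own means among the 8 genes (0.693, 0.728 and 0.712). These are descriptions over 9 points that fall in 3 groups.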

How the data were processed

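RNA of sorted monocytes and macrophages was measured in 9 libraries, 3 for each of sham blood, stroke blood and stroke brain, grouped by the tissue and surgery of their labels. The authors made cDNA with SMART-Seq HT and libraries with Nextera XT, aligned paired reads by HISAT2 (GRCm38) and used HTSeq to obtain read numbers for every gene, and the deposited values are these raw counts. Tool versions, annotation release and strand setting are not given in the sources used here. Libraries were amplified without molecular identifiers, so floors cover counting error only. Symbols, positions and lengths came from GENCODE M21, which held 53706 of the 53801 identifiers.

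Each pair of groups was compared by the quasi-likelihood test of edgeR 4.0.16 (R 4.3.3) after TMM scaling and the default low-count filter, adjusted by Benjamini-Hochberg over all genes tested, and called, with the study's thresholds, where the adjusted p was below 0.05 and the log2 fold change beyond 1 in either direction. The fit was tested on simulated data. Chi-square tests of the counts gave between 26.2 and 152 per degree of freedom for libraries of a group, so none was a copy of another. The members and lists were chosen with earlier results of these data known. Named were the 8 members, up to 4 called genes of each list and comparison with the largest change, any gene of the paralog, regulator and monocyte lists, and the 3 genes nearest in pattern to each member. Alternatives were DESeq2 1.42.0, no filter, RLE, upper-quartile and library-size scaling, 1 fit of all 9 libraries, the replicate block, other thresholds and each library left out. Tables and figures used Python 3.11.15, pandas 2.3.3, numpy 2.4.6 and matplotlib 3.10.9.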

Additional observations from a re-analysis of the deposited data

How the results depend on the processing

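In stroke brain versus stroke blood, where none of the 8 genes was called, 1 was with DESeq2, with no filter, with RLE or upper-quartile scaling and with all 9 libraries in a single fit, 2 with the replicate block and 2 with no fold threshold. With a library left out between 0 and 2 were called (Ace and Pou2f2 without brain replicate 1, Spn without stroke blood replicate 2). Sham and stroke libraries come from different mice. Whether a stroke blood mouse was also in a brain pool is not given in the sources used here. For same-numbered libraries, the correlations of their deviations from the group means lay between -0.0818 and 0.0813. The numbers thus showed no pairing of the samples. The block called Ace at -1.05 and Pou2f2 at -1.24. In stroke versus sham blood DESeq2 called 1 of the 8 and leaving out a library none. In stroke brain versus sham blood, with 1 called, there were 2 with no fold threshold, 0 at an adjusted p below 0.01 and between 0 and 2 with a library left out. Over all genes, stroke brain versus stroke blood gave 2771 calls and 1793 at an adjusted p below 0.01. Stroke versus sham blood gave 1 call, 127 with DESeq2, 160 with no filter, 0 at an adjusted p below 0.01 and between 0 and 16 with a library left out, with 16 without sham blood replicate 1. Stroke brain versus sham blood gave 1748 calls, 792 at an adjusted p below 0.01 and between 1146 and 1883 with a library left out, with 1146 without sham blood replicate 3. The cause was not tested in these cases.

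The sign of 4 genes turned under some setting. In stroke brain versus stroke blood Adgre4 turned to 0.0932 with library size only and ranged from -0.23 to 0.21 with a library left out, Eno3 from -0.0334 to 0.53 and Fabp4 from -0.14 to 0.71. In stroke brain versus sham blood Ace turned to 0.0187 with library size only and ranged from -0.94 to 0.22 with a library left out. Of 168 estimates of the 8 genes under alternatives that keep all libraries, 158 kept their sign and their side of the thresholds, and of 144 with a library left out, 127 did. Fabp4 had the fewest counts, between 33 and 262 per library, and so the most counting error.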
